A study of Mus musculus with 27 samples.

Results

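The genes H2-Ab1 and Itgax were followed in donor monocyte-derived cells that had entered the small intestine of recipients. Both were taken by name from a NanoString nCounter panel of 67 genes, of which 57 had values and were tested, so that they make up 2 of 57 genes. Bone-marrow monocytes of C57BL/6 donors were transferred into C57BL/6 CCR2-/- recipients, and 100 donor cells were sorted from each recipient 1, 2 or 5 days post-transfer. The study's methods name WT or CX3CR1gfp/+ donors for its differentiation experiments, and the sample titles do not name the donor. Each of the 27 samples came from its own mouse and its own lane of the instrument, which counts barcoded probes without sequencing. Manipulated recipients, whose small intestine had been handled surgically 1 day before the transfer, gave 5, 4 and 4 samples at days 1, 2 and 5. Non-manipulated recipients, which had no surgery, gave 5, 5 and 4. Anaesthesia, the abdominal incision and the painkiller Novalgin in the drinking water went with the surgery and cannot be told apart from it. All recipients lacked CCR2, and all donor cells carried intact CCR2.

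H2-Ab1 encodes the beta chain of the mouse MHC class II molecule I-A, which displays peptides to CD4+ T cells. Its transcription depends on the coactivator CIITA, which interferon-gamma induces. Itgax encodes CD11c, the integrin alpha X chain, which pairs with the beta chain CD18 on macrophages and dendritic cells. Ly6C+ monocytes that enter the intestine acquire MHC class II, and intestinal macrophages carry both MHC class II and CD11c.

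The stretch before the transcription start of Itgax is shown because regulators of this gene are described below. It is the 250 bases that precede the start in RefSeq's annotation of GRCm38.p6, at chr7:128129300-128129549 on the plus strand. The capitals mark the match to the AP-1 motif, 56 bases before the start.
Itgax: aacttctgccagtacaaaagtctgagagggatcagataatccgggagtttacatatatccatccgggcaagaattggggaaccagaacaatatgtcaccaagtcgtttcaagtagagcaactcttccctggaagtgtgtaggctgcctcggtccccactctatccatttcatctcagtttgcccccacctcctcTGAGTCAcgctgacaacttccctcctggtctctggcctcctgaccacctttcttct
The AP-1 letters TGAGTCA occurred 1 time in this window, searched on both strands, and in 4.46% of 32851 promoter windows of the same length. The letters searched for PU.1 (GAGGAA, in 23.2% of windows) and RUNX (TGTGGT, 14.1%) had 0 matches here. The interferon-stimulated response element (2.98%) and the composite element of IRF and PU.1 (2.30%) also had 0. The PU.1 letters do not overlap those of AP-1, and the last 2 motifs can overlap each other. A match is a description of letters and does not show that a factor binds.

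Lanes held 597997 to 1347007 counts over the tested genes. A scaled count is a count set relative to the geometric mean of the housekeeping genes Actb, Gapdh and Rpl19 in its lane, which ran from 10838 to 41968, and brought back to the average lane. Both genes exceeded the background of the lane, set at the mean plus 2 SD of the negative probes, in all 27 samples. The lowest Itgax count, 67 in mouse 2 of the manipulated recipients at day 1, was 4.00 times its background, and the lowest H2-Ab1 count, 471 in the same mouse, was 28.1 times. The values of the 12 lanes of mice 3 and 4 had been deposited as multiples of a common factor, and lanes of these mice are compared below on their own. All 6 monocyte and macrophage markers (Csf1r, Adgre1, Cd68, Fcgr1, Cd14 and Cx3cr1) were above background in every lane. Of dendritic cell markers only Ccr7 had values, and the panel held none for other cell types. The panel also held 2 dendritic cell genes, Flt3 and Zbtb46, which were among the blank genes removed by the authors for low detection. Ccr7 ran from 921 to 3277, 1137 to 3017 and 1391 to 11348 scaled counts in manipulated recipients at days 1, 2 and 5, against 699 to 3057, 1093 to 17885 and 1384 to 4806 in non-manipulated recipients. Its highest level fell in the non-manipulated mouse that was also highest in Itgax, mouse 1 of day 2, and without this mouse Itgax at day 2 gave -2.21 (adjusted p = 0.0416). The part of dendritic cells in the levels of H2-Ab1 and Itgax was not tested. The sort gate took CD64+ cells with low to intermediate CD11c, so that the protein of Itgax was limited to the same range in every group. As each sample was a pool of cells, fewer cells with a transcript and less transcript per cell cannot be told apart.

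In scaled counts H2-Ab1 was lower in manipulated recipients than in non-manipulated recipients at every day, with no overlap between the groups. At day 1 it stood at 1752, 533, 30566, 53256 and 25475 scaled counts in manipulated mice 1 to 5, against 110105, 85027, 71511, 74946 and 130407 in non-manipulated mice 1 to 5. Mice 1 and 2 of the manipulated recipients were far below the others, and the highest manipulated sample was still below the lowest non-manipulated one. At day 2 the levels were 7763, 19747, 79520 and 74877 in manipulated mice 1 to 4, against 178783, 128218, 189078, 186937 and 212775 in non-manipulated mice 1 to 5. Mice 1 and 2 were again the lowest of the manipulated samples. At day 5 the levels were 170899, 172391, 109924 and 181031 in manipulated mice 1 to 4, against 206550, 428733, 369203 and 570147 in non-manipulated mice 1 to 4. By then the manipulated samples lay close together, and the lowest non-manipulated sample was close above them. The share of tested genes that were lower without overlap was 12.3% at day 1, 14% at day 2 and 3.51% at day 5. The separation of H2-Ab1 at days 1 and 5 depended on the scaling. In the authors' normalized values the highest manipulated sample exceeded the lowest non-manipulated one at day 1 (157251 against 68467) and day 5 (222760 against 192965). Relative to Actb alone the groups overlapped at day 1, and relative to Gapdh alone at day 5. At day 2 they stayed apart under each of these scalings.

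The H2-Ab1 transcript took a large part of what the panel counted. It made up 0.0479 to 4.73% of the counts of tested genes in manipulated recipients at day 1, against 7.70 to 13.8% in non-manipulated recipients. At day 5 its share was 10.5 to 13.4% in manipulated recipients and 21.4 to 41.5% in non-manipulated recipients. A share of this size lowers the shares of all other genes in a lane, which scaling to housekeeping genes avoids. The housekeeping genes were themselves not level between the groups. At day 1 scaled Actb ran from 95346 to 107677 in manipulated and from 120913 to 154965 in non-manipulated recipients. Rpl19 differed in the opposite direction, at 2848 to 3485 against 1949 to 2496. As these values are relative to their own geometric mean, which gene moved cannot be told.

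In scaled counts Itgax was lower in manipulated recipients without overlap at day 2 only. At day 1 it stood at 363, 75.8, 1150, 2388 and 227 scaled counts in manipulated mice 1 to 5, against 4101, 6363, 4567, 4774 and 2045 in non-manipulated mice 1 to 5. Of the manipulated samples 4 of 5 lay below the lowest non-manipulated one, and the exception was mouse 4. At day 2 the levels were 491, 1326, 1994 and 2305 in manipulated mice 1 to 4, against 13043, 5753, 7738, 6784 and 8109 in non-manipulated mice 1 to 5. Every manipulated sample was below every non-manipulated sample. At day 5 the levels were 2542, 464, 1487 and 5659 in manipulated mice 1 to 4, against 5226, 5912, 5553 and 5525 in non-manipulated mice 1 to 4. The non-manipulated samples were almost equal, while the manipulated samples spread 12.2-fold and mouse 4 lay among the non-manipulated ones.

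**Figure D1:**
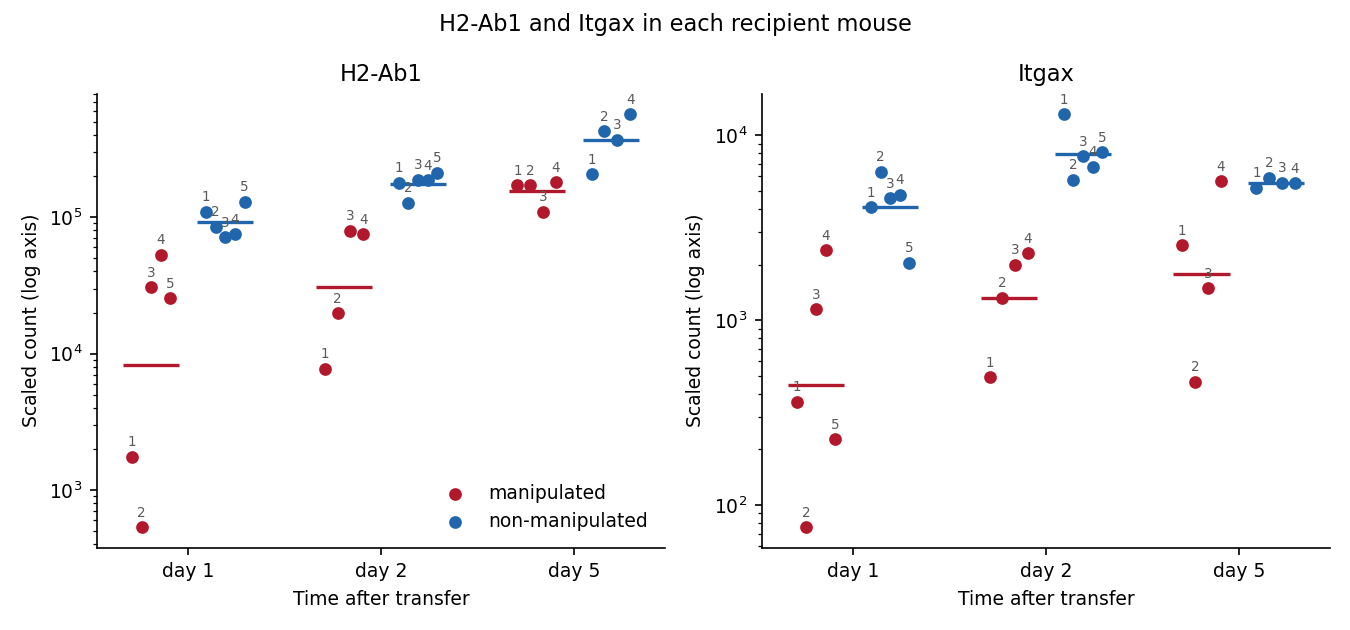
Scaled counts of H2-Ab1 (left) and Itgax (right) on log axes by day post-transfer, with 1 point per recipient, numbered by mouse, and a line at the geometric mean of each group (manipulated red, non-manipulated blue). Manipulated H2-Ab1 samples lie below all non-manipulated samples of the same day, and the manipulated samples of day 1 spread 99.9-fold for H2-Ab1 and 31.5-fold for Itgax.

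The 6 groups fell into a similar order for the 2 genes at the low end. By geometric mean, H2-Ab1 was lowest in manipulated recipients at day 1 (8272), followed by manipulated day 2 (30909), non-manipulated day 1 (91866), manipulated day 5 (155605), non-manipulated day 2 (176728) and non-manipulated day 5 (369502). For Itgax the order was manipulated day 1 (443), manipulated day 2 (1315), manipulated day 5 (1775), non-manipulated day 1 (4104), non-manipulated day 5 (5549) and non-manipulated day 2 (7959). Each group overlapped its neighbours in both orders, so that only groups farther apart in the order were separate. Manipulated H2-Ab1 at day 5 stood above non-manipulated H2-Ab1 at day 1 in geometric mean, whereas all 3 manipulated geometric means of Itgax stood below all 3 non-manipulated ones.

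The manipulated and non-manipulated recipients were then compared with a quasi-likelihood test across all 57 genes (edgeR), with p-values adjusted over these genes within each comparison. At day 1 H2-Ab1 fell 4.23-fold in manipulated recipients (-2.08 ± 0.73 on the log2 scale, SE, 95% interval -3.59 to -0.57, adjusted p = 0.0253). Itgax fell 5.20-fold (-2.38 ± 0.69, interval -3.81 to -0.95, adjusted p = 0.00704). At this day 17.5% of tested genes were called lower and 24.6% higher and H2-Ab1 and Itgax ranked 7th and 5th from the lowest fold change.

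At day 2 Itgax fell 5.42-fold (-2.44 ± 0.76, interval -4.0 to -0.88, adjusted p = 0.0222). H2-Ab1 gave -1.98 ± 0.79 (interval -3.61 to -0.35), with an adjusted p of 0.0529 that missed the threshold of 0.05. It passed in 10 of 21 alternative settings, among them the set of lanes as a block (-2.32, adjusted p = 0.0284) and the mouse number as a block (-2.22, adjusted p = 0.0482), and in 0 of 9 fits that left out 1 mouse. Here 17.5% of tested genes were called lower and 14% higher. Without mouse 1 or mouse 2 of the manipulated recipients the Itgax call was lost, with adjusted p of 0.0650 and 0.0583.

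At day 5 neither gene passed. H2-Ab1 gave -1.31 ± 0.80 (interval -2.96 to 0.34, adjusted p = 0.270) and Itgax -1.13 ± 0.75 (interval -2.67 to 0.41, adjusted p = 0.290). The intervals still hold falls as large as those of day 1. Of the tested genes 7.02% were called lower and 17.5% higher at this day, the median fold change over all genes was 0.59, and the summed scaled count of the 6 monocyte and macrophage markers ran from 186861 to 333055 in manipulated recipients and from 113369 to 195038 in non-manipulated recipients. Much of this sum was Cd14, which alone ran from 162527 to 184985 in manipulated and from 52829 to 126692 in non-manipulated recipients. The part of these shifts in the values of H2-Ab1 and Itgax was not tested. At days 1 and 2 the median over all genes was near 0 (-0.08 and -0.05).

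An exact permutation test of the group labels at each day, which uses 1 gene alone and weights every mouse equally on the log2 scale, gave H2-Ab1 an unadjusted two-sided p of 0.00794 at day 1, 0.0159 at day 2 and 0.0286 at day 5. Each of these is the smallest value the number of mice allows. The exact tests rest on the scaled counts and were not repeated with another scaling. For Itgax the exact p was 0.0159 at day 1, 0.0159 at day 2 and 0.114 at day 5. The differences of mean log2(scaled count + 1) behind them were -3.47, -2.52 and -1.25 for H2-Ab1 and -3.20, -2.60 and -1.64 for Itgax. They are larger than the fitted fold changes at days 1 and 2 because the fit averages counts, in which the lowest mice weigh little.

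The size of the difference at day 1 depended on the lanes. Within the lanes of mice 3 and 4, H2-Ab1 at day 1 gave -0.81 (adjusted p = 0.143) and Itgax -1.40 (adjusted p = 0.103), and within the other lanes the fit gave -3.55 (adjusted p = 0.0109) and -4.23 (adjusted p = 0.00162). At day 2 H2-Ab1 gave -1.28 and -3.66 in the 2 sets of lanes, and Itgax -1.76 and -3.30. At day 5 the order turned for H2-Ab1, which was lower by 1.69 on the log2 scale in the lanes of mice 3 and 4 (adjusted p = 0.00817) and gave -0.88 in the other lanes (adjusted p = 0.735). Itgax at day 5 gave -0.63 in the lanes of mice 3 and 4 (adjusted p = 0.434) and -1.89 in the other lanes (adjusted p = 0.273). All 12 of these differences were negative. Scaling with the factor implied by the authors' normalized values ended the calls at day 1 (H2-Ab1 -1.15, adjusted p = 0.278, and Itgax -1.39, adjusted p = 0.175) and that of Itgax at day 2 (-1.94, adjusted p = 0.104). Fitted with limma on the log2 scale, the same normalized values kept both calls at day 1 (H2-Ab1 -2.91 and Itgax -2.65, adjusted p = 0.0119 for each) and not that of Itgax at day 2 (-2.08, adjusted p = 0.103). With the authors' factor the median over all genes was itself 0.66, 0.40 and 0.85 at days 1, 2 and 5, and 17, 11 and 11 genes were called higher and 4, 2 and 1 lower, beside 14, 8 and 10 higher and 10, 10 and 4 lower with the 3 housekeeping genes. With Rpl19 alone the medians were -0.54, -0.82 and 0.32, with 10, 4 and 7 genes higher and 13, 17 and 3 lower.

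**Figure D2:**
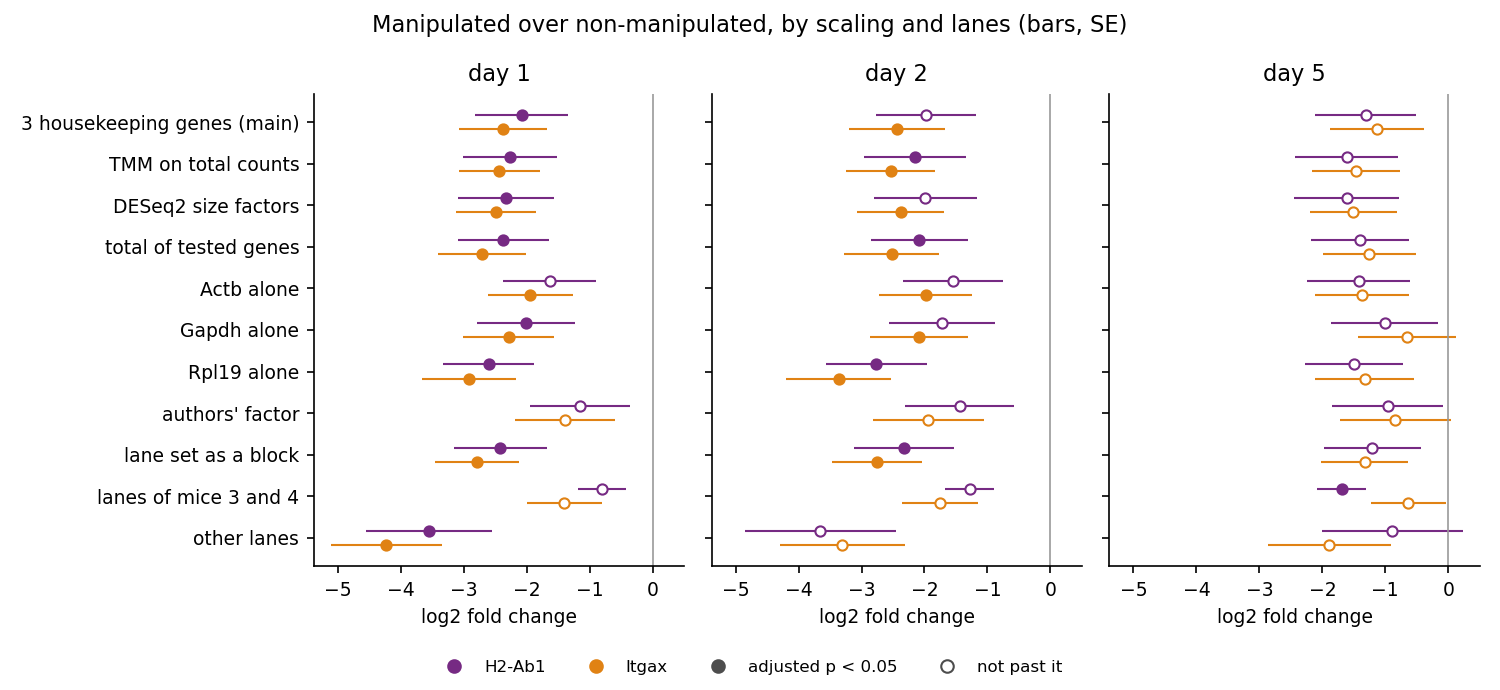
Log2 fold changes of H2-Ab1 (purple) and Itgax (orange) in manipulated over non-manipulated recipients at each day, with bars of 1 SE, under different scalings and within sets of lanes. Filled points have an adjusted p below 0.05, and every point lies left of 0, from -0.63 for Itgax at day 5 in the lanes of mice 3 and 4 to -4.23 for Itgax at day 1 in the other lanes.

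Between days 1 and 5 the only rise that passed the test was that of H2-Ab1 in manipulated recipients. In manipulated recipients H2-Ab1 rose 7.11-fold at day 5 over day 1 (2.83 ± 0.78, interval 1.23 to 4.43, adjusted p = 0.00774). In scaled counts every day 5 sample was above every day 1 sample and above every day 2 sample. In the authors' normalized values the lowest day 5 sample (125990) was below the highest of day 1 (157251) and of day 2 (130254). Relative to Actb alone days 5 and 2 also overlapped. Of the tested genes 22.8% were called higher and 17.5% lower at day 5 than at day 1, and 10.5% were higher without overlap (3.51% for day 5 against day 2). The joint test of any change over the 3 days gave H2-Ab1 an adjusted p of 0.0166, with 35.1% of genes called. With the authors' factor H2-Ab1 gave 1.71 (adjusted p = 0.122), while the median over all genes was -0.72 with that factor and 0.17 with the 3 housekeeping genes. The same factor left 2 genes called higher and 12 lower, beside 13 higher and 10 lower with the housekeeping genes. With limma on the normalized values H2-Ab1 passed (3.50, adjusted p = 0.00652), and 3 genes were called higher and 11 lower.

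Itgax gave 1.59 ± 0.70 in manipulated recipients at day 5 against day 1 (interval 0.15 to 3.04, adjusted p = 0.0730), with 2 of 4 day 5 samples above all day 1 samples. This value rested on single mice. It was 0.83 without mouse 4 of day 5 and 2.48 without mouse 4 of day 1 (adjusted p = 0.00704), and 1.94 without mouse 2 of day 5 (adjusted p = 0.0359). The joint test over the 3 days gave an adjusted p of 0.181.

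In non-manipulated recipients H2-Ab1 gave 2.06 ± 0.76 at day 5 against day 1 (interval 0.50 to 3.62), a 4.17-fold difference whose adjusted p was 0.0556. All 4 day 5 samples were above all day 1 samples, as for 14% of tested genes, while 10.5% were called higher and 8.77% lower. The joint test gave an adjusted p of 0.118, with 21.1% of genes called. Itgax gave 0.35 ± 0.70 (interval -1.09 to 1.78, adjusted p = 0.773), and its sign turned with the total count of tested genes (-0.080), with the authors' factor (-0.23) and with limma on the authors' normalized table (-0.10). Its joint test gave an adjusted p of 0.539. The Itgax level was highest at day 2 by mean, where 4 of 5 samples lay above the highest day 1 sample, and at day 5 3 of 4 samples lay below the lowest day 2 sample.

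No single step between neighbouring days passed for either gene. In manipulated recipients H2-Ab1 gave 1.03 ± 0.75 for day 2 over day 1 (adjusted p = 0.452) and 1.80 ± 0.81 for day 5 over day 2 (adjusted p = 0.157), and Itgax gave 0.86 ± 0.70 and 0.73 ± 0.74. In non-manipulated recipients H2-Ab1 gave 0.92 ± 0.71 for day 2 over day 1 (adjusted p = 0.449) and 1.14 ± 0.75 for day 5 over day 2 (adjusted p = 0.333), and Itgax gave 0.92 ± 0.66 and -0.58 ± 0.71. The shares of genes called in these steps were 1.75% and 5.26% in manipulated recipients and 14% and 12.3% in non-manipulated recipients.

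The manipulation effect at day 5 was also set directly against that at day 1. The change was 0.77 ± 1.06 for H2-Ab1 (interval -1.41 to 2.95, adjusted p = 0.644) and 1.25 ± 0.99 for Itgax (interval -0.79 to 3.29, adjusted p = 0.358). A narrowing of the gap with time was therefore not shown for either gene, and 19.3% of tested genes passed this test. For H2-Ab1 the sign was opposite in the lanes of mice 3 and 4 (-0.89, adjusted p = 0.267), where the gap was wider at day 5.

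The ratio of the H2-Ab1 count to the Itgax count within a lane is untouched by any scaling of that lane. Because the probes and primers of the 2 genes differ, only its change between lanes can be read, and it is given as a description. At day 1 the ratio was 4.83, 7.03, 26.6, 22.3 and 112 in manipulated mice 1 to 5, against 26.8, 13.4, 15.7, 15.7 and 63.8 in non-manipulated mice 1 to 5. Mouse 5 was the highest in both groups, and the manipulated samples held both the lowest and the highest values of the day. At day 2 the ratio was 15.8, 14.9, 39.9 and 32.5 in manipulated mice 1 to 4, against 13.7, 22.3, 24.4, 27.6 and 26.2 in non-manipulated mice 1 to 5. At day 5 it was 67.2, 372, 73.9 and 32.0 in manipulated mice 1 to 4, against 39.5, 72.5, 66.5 and 103 in non-manipulated mice 1 to 4.

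Manipulated and non-manipulated recipients overlapped in this ratio at every day. The geometric mean was 18.7 in manipulated and 22.4 in non-manipulated recipients at day 1. It was 23.5 in manipulated and 22.2 in non-manipulated recipients at day 2, and 87.7 in manipulated and 66.6 in non-manipulated recipients at day 5. The log2 differences of -0.26, 0.08 and 0.40 were below the pooled SD of 1.12 within groups. Between days the ratio moved more. Day 5 over day 1 it was 4.70-fold higher in manipulated recipients and 2.97-fold higher in non-manipulated recipients, which is 2.23 and 1.57 on the log2 scale. The manipulated value rested on single mice. It was 2.90-fold without mouse 2 of day 5 and 7.36-fold without mouse 5 of day 1, and with each other mouse left out in turn it ran from 3.35-fold to 6.58-fold. In non-manipulated recipients it ran from 2.57-fold to 3.86-fold with each mouse left out. Within the lanes of mice 3 and 4 the manipulated value was 1.00 on the log2 scale, and within the other lanes it was 3.34.

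**Figure D3:**
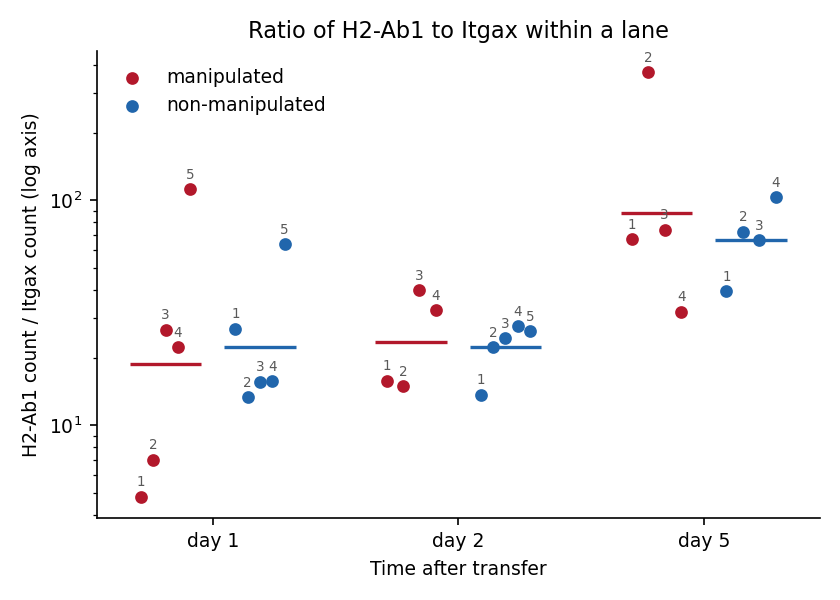
Ratio of H2-Ab1 to Itgax counts in each lane on a log axis by day post-transfer, with 1 numbered point per mouse and a line at the geometric mean (manipulated red, non-manipulated blue). The groups overlap within each day, and the day 5 lines lie at 87.7 (manipulated) and 66.6 (non-manipulated), above those of days 1 and 2.

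Other genes of antigen presentation did not all share the direction of H2-Ab1. Of 9 listed genes of MHC class II and co-stimulation 3 were measured. At day 1 H2-Ab1 was lower, whereas Cd80, a ligand of CD28 on T cells, was higher in manipulated recipients (1.71 ± 0.41, adjusted p = 0.00167). The related ligand Cd86 gave 0.57 ± 0.52 (adjusted p = 0.394). The median of the 3 was 0.57, beside -0.08 over all genes. At this day 17.5% of all tested genes were called lower and 24.6% higher. Cd80 gave 0.32 ± 0.42 at day 2 and -0.55 ± 0.45 at day 5, and the change of its manipulation effect between days 1 and 5 passed (-2.26 ± 0.61, adjusted p = 0.0112). In non-manipulated recipients Cd80 rose by day 5 over day 1 (1.51 ± 0.43, adjusted p = 0.0130), a call that passed in 24 of 30 alternative settings. It was lost without mouse 2 of day 5 (1.05, adjusted p = 0.110, edgeR). For day 5 over day 1 the list thus held 1 gene of 3 called in each arm, H2-Ab1 in manipulated and Cd80 in non-manipulated recipients. Over all tested genes 22.8% were called higher in manipulated and 10.5% in non-manipulated recipients, and 3 genes are too few to set against these shares. For H2-Ab1 the non-manipulated rise was 2.06 (adjusted p = 0.0556, edgeR), and the difference between the arms did not pass (adjusted p = 0.644, edgeR).

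Of 8 listed regulators of MHC class II and CD11c 4 were measured, of which 0, 1 and 0 were called lower at days 1, 2 and 5 and 0 higher, beside 17.5%, 17.5% and 7.02% of all tested genes called lower. The single call is near the share over all genes. Irf4, a factor of monocyte and dendritic cell differentiation, fell at day 2 (-1.81 ± 0.50, adjusted p = 0.0128) and gave -1.07 ± 0.45 at day 1 (adjusted p = 0.0581). The day 2 call of Irf4 passed in 26 of 30 alternative settings and was lost with the authors' factor (adjusted p = 0.0587, edgeR). Its groups overlapped at day 2, with manipulated samples up to 4044 scaled counts and non-manipulated samples from 3675. Spi1, which encodes PU.1, gave -0.32 ± 0.29, -0.51 ± 0.31 and -0.14 ± 0.32 at days 1, 2 and 5, and Irf5 and the NF-kB subunit gene Relb passed at no day. The medians of the 4 regulators were -0.40, -0.45 and 0.15, beside -0.08, -0.05 and 0.59 over all genes.

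Of 4 listed interferon-response genes 3 were measured, and every call among them was lower in manipulated recipients. Cxcl9, a chemokine gene induced by interferon-gamma, fell at all 3 days (-4.57 ± 1.07, -4.15 ± 1.15 and -3.04 ± 1.11, adjusted p = 0.00136, 0.0128 and 0.0452). Its manipulated levels at day 1 lay between 48.7 and 132 scaled counts, close to background, so that the size of this fall is uncertain. Cxcl11, a ligand of the same receptor CXCR3, fell at day 1 (-2.28 ± 0.91, adjusted p = 0.0467) and day 2 (-3.38 ± 1.05, adjusted p = 0.0222). Cxcl10, the other CXCR3 ligand, passed at no day (-0.83 ± 0.60, -0.92 ± 0.64 and -0.84 ± 0.67). The list thus had 2, 2 and 1 of 3 genes called lower at days 1, 2 and 5 and 0 higher, with medians of -2.28, -3.38 and -1.53, beside 17.5%, 17.5% and 7.02% of all tested genes called lower. The call of Cxcl9 at day 5 passed in 13 of 29 alternative settings and that of Cxcl11 at day 1 in 13 of 31, leaving out 1 mouse included.

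Mature intestinal macrophages express H2-Ab1 and Itgax together with other surface receptors. Of 11 listed genes of mature intestinal macrophages 9 were measured, H2-Ab1 and Itgax included. At day 1 4 of the 9 were called lower and 0 higher, namely H2-Ab1, Itgax, the fractalkine receptor gene Cx3cr1 (-3.70 ± 0.79, adjusted p = 0.000661) and the growth factor receptor gene Csf1r (-1.10 ± 0.44, adjusted p = 0.0467). Over all tested genes 17.5% were lower and 24.6% higher at this day, and 2 of the 4 are the genes described here. The call of Cx3cr1 passed in 31 of 31 alternative settings and that of Csf1r in 18 of 31. Manipulated Cx3cr1 levels at day 1 lay between 47.5 and 180 scaled counts, close to background, so that the size of its fall is uncertain. At day 2 Itgax and Cx3cr1 (-2.16 ± 0.81, adjusted p = 0.0419) were lower, beside 17.5% of all genes, and at day 5 0 of 9 passed. The call of Cx3cr1 at day 2 passed in 16 of 30 alternative settings. In manipulated recipients 6 of the 9 rose by day 5 over day 1, H2-Ab1 among them and Itgax not, beside 22.8% of all genes, and 0 of 9 rose in non-manipulated recipients, beside 10.5%. The count of 6 was 1 with the authors' factor, 2 with limma on the normalized values, 1 with only the groups compared and 4 without mouse 4 of day 5. The difference between the counts of the 2 arms was not tested. All 5 genes of Ly6C+ monocytes were measured, of which 4 fell in manipulated recipients by day 5 over day 1, beside 17.5% of all genes, and 2 in non-manipulated recipients, beside 8.77%. The difference between these 2 counts was not tested either, and the non-manipulated count ran from 1 to 3 over the alternative settings. Of integrin genes only Itgax and Itgb7, the beta chain of the gut-homing integrin, were measured. Itgb7 gave -1.16 ± 0.64, -1.69 ± 0.71 and -1.30 ± 0.72 at days 1, 2 and 5 (adjusted p = 0.148, 0.0636 and 0.220) and fell by day 5 in manipulated recipients (-2.0 ± 0.72, adjusted p = 0.0248), a call that passed in 23 of 30 alternative settings.

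**Figure D4:**
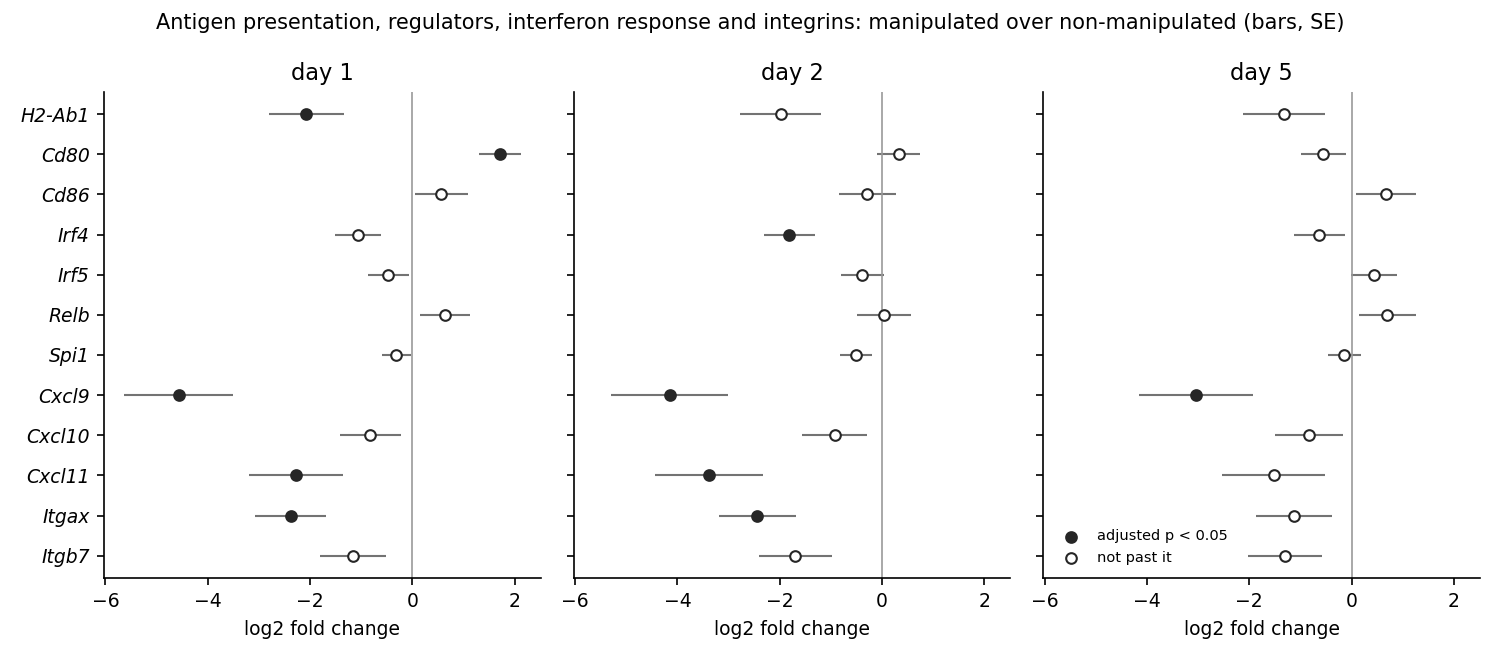
Log2 fold changes in manipulated over non-manipulated recipients at days 1, 2 and 5 for the measured genes of antigen presentation, their regulators, the interferon response and integrins, with bars of 1 SE and filled points for an adjusted p below 0.05. At day 1 Cxcl9 lies farthest to the left at -4.57, while Cd80 lies on the right at 1.71.

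Across the 27 samples genes close to H2-Ab1 by Spearman correlation of scaled counts were Itgax (0.75, the highest of 56 genes), Cxcl10 (0.69) and Cxcl9 (0.69). The lowest were Trem1, an amplifier of inflammatory signals in monocytes (-0.84), and Chil3, which encodes the secreted chitinase-like protein Ym1 (-0.80). The 56 other genes had a median of -0.05 with H2-Ab1. For Itgax the closest were Ccr2, the chemokine receptor of inflammatory monocytes (0.79), Cxcl9 (0.75), H2-Ab1 (0.75) and Irf4 (0.74), and the lowest were the chemokine gene Ccl2 (-0.64) and the cytokine gene Il1a (-0.62), with a median of 0.00 over 56 genes. All values of a lane share its housekeeping scaling and its cells, and groups differ in level, so these are descriptions.

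When each sample was set against the mean of its own group, Itgax had a correlation of 0.45 with H2-Ab1, the 5th highest. That of Cxcl9 with H2-Ab1 was 0.10, and those of Trem1 and Chil3 with H2-Ab1 were -0.29 and -0.28. With Itgax, Ccl2 stood at 0.23 and Il1a at -0.07. The negative correlations over all samples were thus weaker within groups, and that of Ccl2 changed sign. Ccr2 remained the closest of the 56 genes to Itgax (0.67). With the authors' normalized values the within-group correlation of Ccr2 with Itgax was 0.80, again the closest. In these values other genes were also high with Itgax, such as Csf1r (0.73), Adgre1 (0.72) and Cd68 (0.71). There H2-Ab1 stood at 0.53 with Itgax, the 28th highest. Ccr2 ran from 4899 to 38699 in the manipulated samples of day 1 and from 44778 to 111982 in non-manipulated samples of day 1. The manipulation effect on Ccr2 was -1.73 ± 0.48 at day 1, -1.57 ± 0.51 at day 2 and -1.64 ± 0.53 at day 5 (adjusted p = 0.00482, 0.0279 and 0.0264), and its difference from the effect on Itgax was not tested. At day 5 the Ccr2 call was lost without mouse 1 (adjusted p = 0.0700) or mouse 2 (0.0577) of the manipulated recipients, without mouse 3 of the non-manipulated recipients (0.0642), with the authors' factor (0.202), with Gapdh alone (0.125) and with limma on the normalized values (0.240). The calls at days 1 and 2 passed in 28 of 31 and 21 of 30 alternative settings.

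**Figure D5:**
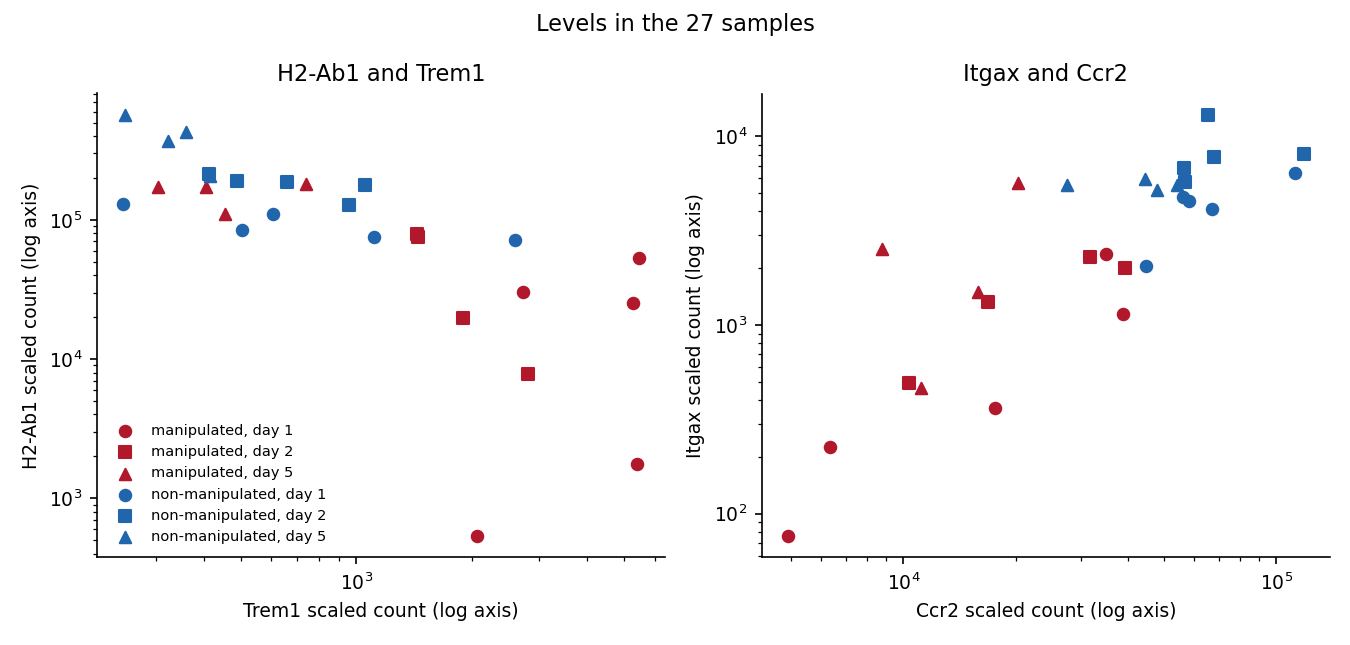
Scaled counts of H2-Ab1 against Trem1 (left) and Itgax against Ccr2 (right) in the 27 samples, on log axes, with colours for manipulated (red) and non-manipulated (blue) recipients and shapes for days. A manipulated sample of day 1 lies lowest in the left panel, at 2066 for Trem1 and 533 for H2-Ab1, and Spearman correlations over all samples are -0.84 and 0.79. With each sample set against the mean of its group, the correlations are -0.29 and 0.67.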

How the data were processed

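Cells were sorted, reverse-transcribed, pre-amplified with gene-specific primers and counted on the nCounter, following the study's methods and the labels. Of the raw lanes, 14 held deposited whole counts. The lane of mouse 5 of the manipulated recipients at day 1 held deposited counts that were all even and was divided by 2. The 12 lanes of mice 3 and 4, deposited as multiples of a common factor of 1.333 and read with the unit expected counts, were divided by it and rounded to whole numbers (tolerance 0.001). The reason for these multipliers is not given in the sources used here. The authors also deposited a score, the raw value times 1 housekeeping factor per sample (0.407 to 3.34), which served as an alternative. Of the panel 10 genes were blank, removed by the authors for low detection. Of 72 probes 69 were named through their accession. Probes target bases 165 to 264 of the H2-Ab1 transcript and 328 to 427 of the Itgax transcript. The free-text description names day 1 for all samples and played no role. Mice came from pooled experiments, and which mouse belonged to which is not given in the sources used here.

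Fits used the two-sided quasi-likelihood F test of edgeR 4.0.16 (R 4.3.3) on all 27 samples with 1 mean per group, no replicate block and the geometric mean of 3 of 5 housekeeping genes (Actb, Gapdh and Rpl19) as library size. Adjustment was by Benjamini-Hochberg over 57 genes within a comparison, with a threshold of 0.05 (common biological coefficient of variation 0.685, 0.754 for H2-Ab1 and 0.704 for Itgax, 21 residual degrees of freedom). On simulated counts of 57 genes with 10 changed, manipulated against non-manipulated at day 1, the fit recovered 90% of the changed genes. The planted changes were 3 on the log2 scale in either direction, so this share does not apply to smaller changes. Exact permutation tests used log2(scaled count + 1) in scipy 1.17.1. Alternatives were other library sizes, limma 3.58.1, DESeq2 1.42.0, the groups compared alone, blocks for replicate number or lane set, each lane set alone, and leaving out each mouse.

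Genes named are H2-Ab1 and Itgax, the 4 genes of highest and the 2 of lowest Spearman correlation with each, and measured members of fixed lists. A gene of the panel stayed in the fits and is not reported here. Members and lists were chosen with earlier results of these data known. Sequence was taken from RefSeq's promoter table, in which Itgax was matched by symbol.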

Additional observations from a re-analysis of the deposited data

Results flagged for a closer look

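In 18 groups of samples (both genes and their ratio at each day in each arm) the sample farthest out was set against the range of its group by Dixon's criterion, and 4 groups held a sample past the 95% limit. For normally distributed values chance alone passes this limit in about 1 of 20 groups. Counts and ratios entered without a log transform, so that this rate need not hold here. The criterion was not applied on the log2 scale. H2-Ab1 in mouse 3 of the manipulated recipients at day 5 stood at 109924 scaled counts, below the other 3 mice at 170899 to 181031. The other samples concern the ratio of H2-Ab1 to Itgax. It was 112 in mouse 5 of the manipulated recipients at day 1, where the other 4 mice ran from 4.83 to 26.6, and this is the lane whose deposited values were all even. It was 63.8 in mouse 5 of the non-manipulated recipients at day 1, against 13.4 to 26.8 in the others. It was 372 in mouse 2 of the manipulated recipients at day 5, where Itgax was at 464 scaled counts, against 32.0 to 73.9 in the others. The ratios share their Itgax counts with the levels above and are not independent of them.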

How the results depend on the processing

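Of 939 values recomputed under alternatives, 862 counted as unchanged, 35 no longer passed, 32 newly passed, 4 values without a test moved and 6 tested values changed sign. Unchanged meant the same direction and side of the threshold for a tested difference, and the same side alone for a joint test. A ratio difference moved if it shifted by at least the pooled SD within groups, so it could change sign and count as unchanged. A correlation moved if its sign changed. The alternatives for the joint tests, the gene lists and the genes set beside H2-Ab1 and Itgax were chosen after seeing the data. The cause was not tested unless a setting has fewer samples by construction. H2-Ab1 at day 1 no longer passed with the authors' factor (-1.15), without Rpl19 (-1.82), with Actb alone (-1.63), with only the groups compared (-2.08) and in the lanes of mice 3 and 4 (-0.81), and Itgax at day 1 with the authors' factor (-1.39) and in the lanes of mice 3 and 4 (-1.40). H2-Ab1 at day 2 passed with TMM (-2.15), the total count (-2.08), without Actb (-2.19), without Gapdh (-2.14), with Rpl19 alone (-2.76), with DESeq2 (-1.98), limma on scaled counts (-2.52), only the groups compared (-1.98) and the lane set as a block (-2.32). Itgax at day 2 no longer passed with the authors' factor (-1.94), limma on the normalized table (-2.08), the lanes of mice 3 and 4 (-1.76) and the other lanes (-3.30), and ran from -2.71 to -2.14 with each mouse left out. At day 5 H2-Ab1 passed with only the groups compared (-1.31) and in the lanes of mice 3 and 4 (-1.69).

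Over time, H2-Ab1 in manipulated recipients (day 5 over day 1) no longer passed with the authors' factor (1.71) and with only the groups compared (2.83), and the joint test likewise (adjusted p = 0.284 and 0.109). In non-manipulated recipients H2-Ab1 passed for day 5 over day 1 without Gapdh (2.23), with Actb alone (2.17), Rpl19 alone (2.30), DESeq2 (2.06), only the groups compared (2.06) and the lanes of mice 3 and 4 (2.68). It passed for day 2 over day 1 with only the groups compared (0.92) and in the lanes of mice 3 and 4 (1.36), for day 5 over day 2 with only the groups compared (1.14), and in the joint test in both settings (adjusted p = 0.000117 and 0.00388, edgeR). Itgax in manipulated recipients (day 5 over day 1) passed without Actb (1.90), with Rpl19 alone (2.15), DESeq2 (1.59), limma on scaled counts (2.00), the lane set as a block (1.74) and in the other lanes (2.76), ran from 0.83 to 2.48 with each mouse left out, and its joint adjusted p (edgeR) from 0.0206 to 0.550. Signs changed for Itgax at day 5 over day 2 in manipulated recipients (-0.12 with limma on the normalized table, and -0.030 to 1.08 with each mouse left out), for Itgax at day 5 over day 1 in non-manipulated recipients (total count -0.080, authors' factor -0.23, limma on the normalized table -0.10), and for the change of the H2-Ab1 effect between days 1 and 5 in the lanes of mice 3 and 4 (-0.89).

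Permutation within a lane set cannot reach 0.05 by the number of mice. H2-Ab1 differed there by -0.86 and -5.21 at day 1, -1.29 and -3.78 at day 2 and -1.70 and -0.79 at day 5, and Itgax by -1.49 and -4.34 at day 1 and -1.76 and -3.39 at day 2 (lanes of mice 3 and 4, then the other lanes). With each mouse left out, H2-Ab1 at day 5 ran from -1.53 to -1.04 and could not reach 0.05 either. The log2 ratio of H2-Ab1 to Itgax at day 5, manipulated minus non-manipulated, was -0.77 and 1.56 in the 2 lane sets, and its manipulated difference of day 5 minus day 1 was 1.00 in the lanes of mice 3 and 4.

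Samples of the same mouse number did not deviate together (median correlation 0.07 over 63 pairs, from -0.64 to 0.57), so the numbers were not taken as pairs. With the replicate number as a block H2-Ab1 at day 2 gave -2.22 (adjusted p = 0.0482, edgeR), and no other call for the 2 genes was changed. Itgax at 4.00 times background in 1 mouse, groups of 4 or 5 mice and pre-amplification without molecular identifiers limit the precision.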
